A study of Mus musculus with 16 samples.

Results

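The genes described here encode the pyruvate dehydrogenase complex and the enzymes that switch it off and on. The set has 10 members, picked by symbol from a table of 23970 gene symbols measured in mouse quadriceps: the kinases Pdk1, Pdk2, Pdk3 and Pdk4, the phosphatases Pdp1 and Pdp2, and the subunits Pdha1, Pdhb, Dlat and Pdhx. All 10 were found in the table. Of them, 9 passed the filter on low values that was set for testing (0.5 FPKM or more on average across all 16 libraries, met by 11256 genes), and Pdk3, with a mean of 0.390 FPKM, did not. FPKM relates the fragments assigned to a gene to its transcript length (in kilobases) and to all fragments mapped. It accounts for transcript length and library size, so levels of different genes can be set side by side on it.

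The study asked how a high-fat diet alters the muscle response to a single bout of exercise. For RNA sequencing it used quadriceps of male C57BL/6NTac mice, 16 weeks of age, in 4 groups of 4 libraries. The control diet (CON) gave 10% of its energy as fat and the high-fat diet (HFD) gave 60%, each for 10 weeks. CON-pre and HFD-pre mice were sampled without running, after the treadmill acclimatisation and fast that all groups shared. CON-post and HFD-post mice ran on an inclined treadmill at rising speed until exhausted, so each animal ran for its own time. They were sampled 3 h later, having had water but no food since the run. The paper reports poorer running performance on the high-fat diet, with a different time but the same work as on the control diet. The methods give all groups an equal fast, but do not spell out whether for the resting animals it covered the 3 h after the run, and if it did not, running and a longer time without food cannot be told apart.

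Pyruvate dehydrogenase is the mitochondrial complex that turns pyruvate into acetyl-CoA and so commits carbohydrate to oxidation. Its E1 enzyme, a tetramer of the alpha chain Pdha1 and the beta chain Pdhb, decarboxylates pyruvate, its E2 core Dlat transfers the acetyl group to coenzyme A, and Pdhx anchors the E3 enzyme, dihydrolipoamide dehydrogenase, to that core. The kinases phosphorylate the alpha chain of E1 and switch the complex off, and the phosphatases remove the phosphate and switch it on again. Pdk4 is the kinase best known in muscle for its induction by fasting, fatty acids and exercise, when fat takes the place of glucose as fuel. Messenger levels say nothing directly about phosphorylation or the activity of the complex, which are not analysed here.

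Pdk4 and Pdp2, an opposing kinase and phosphatase, were the members that passed a test of exercise. Pdp2 did so only with both diets averaged and at the threshold (limma adjusted p = 0.0493), a call held in 6 of 27 alternative fits. The sequence just upstream of each gene is shown so that the letters at these starts can be read. The sequences are from RefSeq (GRCm38.p6), run 5′ to 3′ on the strand of the gene and cover 200 bases, from 250 to 51 bases before its first base. The Pdk4 gene lies on chr6:5483351-5496278 on the minus strand and the Pdp2 gene on chr8:104591472-104599026 on the plus strand. Their stretches are chr6:5496329-5496528 for Pdk4 and chr8:104591222-104591421 for Pdp2. Capitals mark matches to CCAAT on either strand (ATTGG where it lies on the other strand) and to ATAAAAG.
Pdk4: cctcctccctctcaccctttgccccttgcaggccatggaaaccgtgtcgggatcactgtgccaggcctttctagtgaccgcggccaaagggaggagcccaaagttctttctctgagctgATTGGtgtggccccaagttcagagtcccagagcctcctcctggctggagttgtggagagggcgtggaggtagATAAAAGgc
Pdp2: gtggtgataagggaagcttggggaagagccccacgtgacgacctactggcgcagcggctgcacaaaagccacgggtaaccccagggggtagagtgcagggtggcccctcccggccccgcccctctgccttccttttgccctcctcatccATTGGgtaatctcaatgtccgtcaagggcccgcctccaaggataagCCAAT
Both stretches were rich in G and C, at 59% in Pdk4 and 62% in Pdp2. The letters searched first, on both strands of a window from 250 bases before to 50 after each start, were GTAAACA (bound by FoxO factors), AGGTCA (the half-site of many nuclear receptors), AAGGTCA (its longer form, which contains AGGTCA) and AGAACA (a half-site of the glucocorticoid receptor). None of these was found in the Pdk4 or Pdp2 window, against 3.65%, 16.3%, 4.72% and 19% of the 32851 promoter windows of the table. CCAAT and ATAAAAG were searched after the sequences had been seen. CCAAT was in 37.4% of all windows and in 6 of the 11 windows of the 9 members that had an entry. ATAAAAG was in 5.42% of all windows and, among the members, only in that of Pdk4. A match describes letters and not a bound site, and a site outside these windows would not be seen.

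The members differed widely in level. Averaged over the 16 libraries, Pdk4 stood at 368.3 FPKM, Pdha1 at 217.8, Pdk2 at 151.3, Pdhb at 63.3, Dlat at 36.5, Pdhx at 25.5, Pdp1 at 14.3, Pdk1 at 12.1, Pdp2 at 1.62 and Pdk3 at 0.390 FPKM. For 7 of the 9 neighbouring pairs in this order, the ranges over the libraries did not overlap. The exceptions were Pdk4 and Pdha1, where Pdk4 was higher in 14 of 16 libraries, and Pdp1 and Pdk1, where Pdp1 was higher in 14 of 16.

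The spread over the libraries set the kinases apart from each other. The highest library exceeded the lowest by 3.81 times in Pdk4, 2.96 times in Pdk3 and 2.48 times in Pdp2, but by 1.28 times in Pdk2, 1.30 times in Pdha1 and 1.30 times in Pdhx. The coefficient of variation was 37.4% for Pdk4, 27.2% for Pdp2 and 26.1% for Pdk3, and lay between 6.65% (Pdhx) and 14.4% (Pdp1) in the other members.

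Pdk4 was up-regulated after exercise in mice on the control diet. In CON-pre the 4 libraries read 145.9, 159.3, 233.7 and 288.0 FPKM, in HFD-pre 240.4, 335.5, 386.0 and 301.9, in CON-post 529.6, 555.2, 518.1 and 468.8, and in HFD-post 502.1, 531.3, 405.1 and 292.2 FPKM. Every CON-post library lay above every library of both resting groups, whereas the lowest HFD-post library lay below 3 of the 4 HFD-pre libraries. The means were 206.7 ± 66.5 FPKM in CON-pre, 315.9 ± 61.1 in HFD-pre, 517.9 ± 36.3 in CON-post and 432.7 ± 108.1 in HFD-post (SD, n = 4 each).

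**Figure D1:**
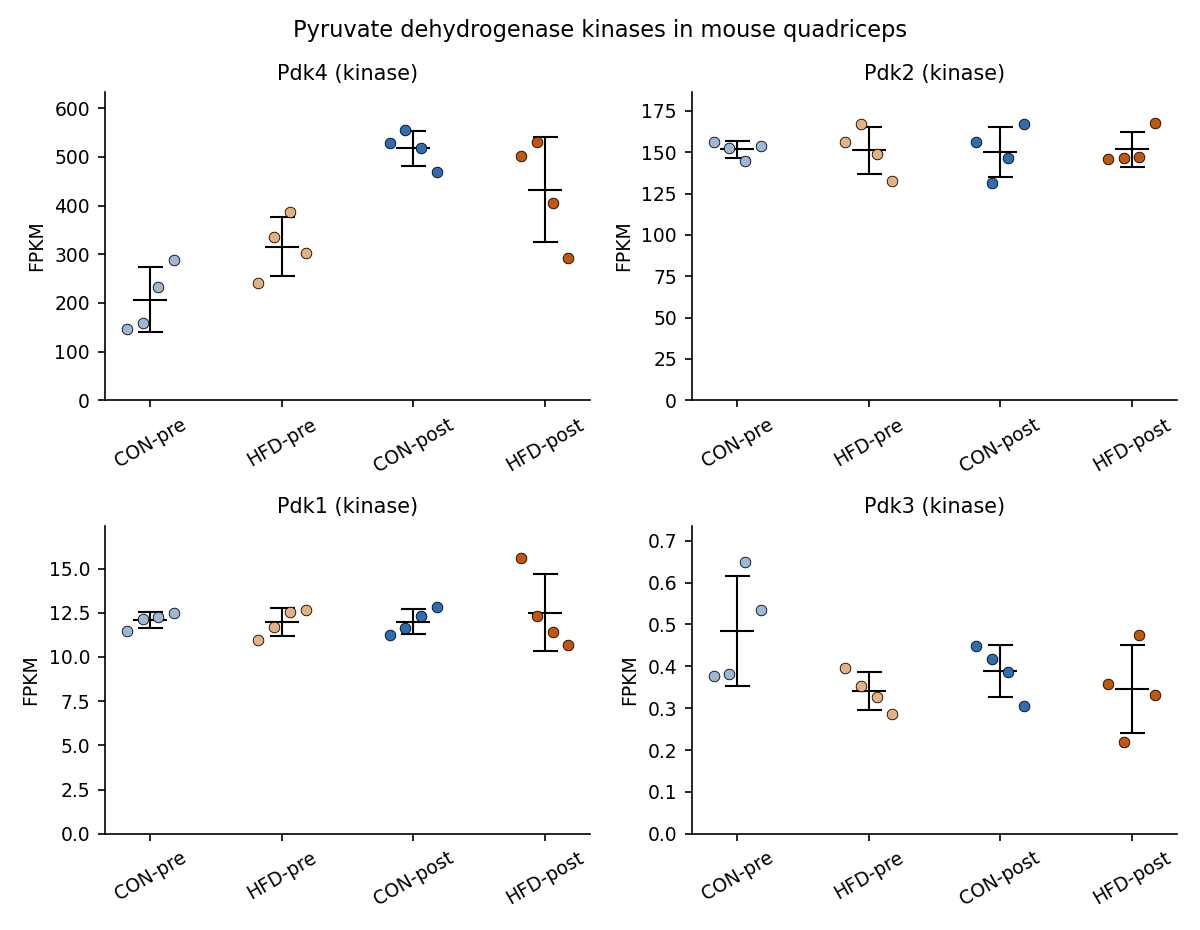
FPKM of the 4 pyruvate dehydrogenase kinases (y axes, from 0) in the 4 groups (x axes). Each point is 1 library, in the order of replicate number, the long bar is the mean and the whiskers are ± 1 SD. Pdk4 rises from 206.7 FPKM in CON-pre to 517.9 in CON-post, Pdk2 stays near 151 in all groups, and all points of Pdk3 lie under 1 FPKM.

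The limma fit on log2(FPKM + 0.5) put Pdk4 1.38 higher on the log2 scale in CON-post than in CON-pre (SE 0.21, 95% interval 0.93 to 1.82, a fold of 2.59, adjusted p = 0.00210 over 11256 genes). Ranked by p, it was gene 37 of 11256 in that comparison. It was the 1 member called of the 9 tested, where 1.11% of all genes tested were called. It was also the 1 member whose libraries did not overlap between CON-post and CON-pre, a separation found in 5.82% of genes tested. Averaged over both diets, Pdk4 was 0.91 higher after exercise on the log2 scale (SE 0.15, a fold of 1.87, limma adjusted p = 0.00200).

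On the high-fat diet the change of Pdk4 with exercise was smaller and did not pass the test. HFD-post exceeded HFD-pre by 0.44 on the log2 scale (SE 0.21, 95% interval -0.01 to 0.88, limma adjusted p = 0.438), and 0 of the 9 members tested were called, against 0.542% of all genes tested. The Pdk4 values of these groups overlapped. No member tested (0) had values clear of the other group here, as 6.81% of all genes tested did. The HFD-post library at 292.2 FPKM (replicate 4) pulled the mean down: without it the difference was 0.61, with an adjusted p of 0.266.

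At rest, Pdk4 read higher on the high-fat diet, without passing the test. HFD-pre exceeded CON-pre by 0.65 on the log2 scale (SE 0.21, 95% interval 0.20 to 1.09, a fold of 1.56), with an unadjusted p of 0.00748 and a limma adjusted p of 0.346. The highest CON-pre library, at 288.0 FPKM, lay above the lowest HFD-pre library, at 240.4, and 0 members tested had values clear of the other group, against 5.62% of all genes tested. None of the 9 members tested (0) was called in this comparison, where 0.346% of all genes tested were. After exercise the order of the diets in Pdk4 was the other way round, with HFD-post 0.29 below CON-post on the log2 scale (log2 fold change -0.29, 95% interval -0.74 to 0.15, limma adjusted p = 0.939). In that comparison 0 members and 0.151% of all genes tested were called, and 0 members and 3.16% of genes did not overlap.

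The difference between the 2 exercise responses was tested as an interaction of diet and exercise. For Pdk4 it was -0.94 on the log2 scale (SE 0.30, 95% interval -1.57 to -0.31), with an unadjusted p of 0.00620, rank 49 of 11256, and a limma adjusted p of 1.00. No gene was called for the interaction (0 of 11256, or 0% called). An unadjusted limma p under 0.05 was found in 356 genes, fewer than chance alone would give over 11256 tests. A smaller response of Pdk4 on the high-fat diet was therefore not established across the genes tested. All 4 pairwise comparisons draw on the same 4 groups, so the CON-pre libraries enter both the diet and the exercise values of Pdk4 and the interaction. Averaged over exercise states, the diet difference of Pdk4 was 0.18 (limma adjusted p = 0.756), and 0 of 9 members tested were called against 0.959% of all genes.

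**Figure D2:**
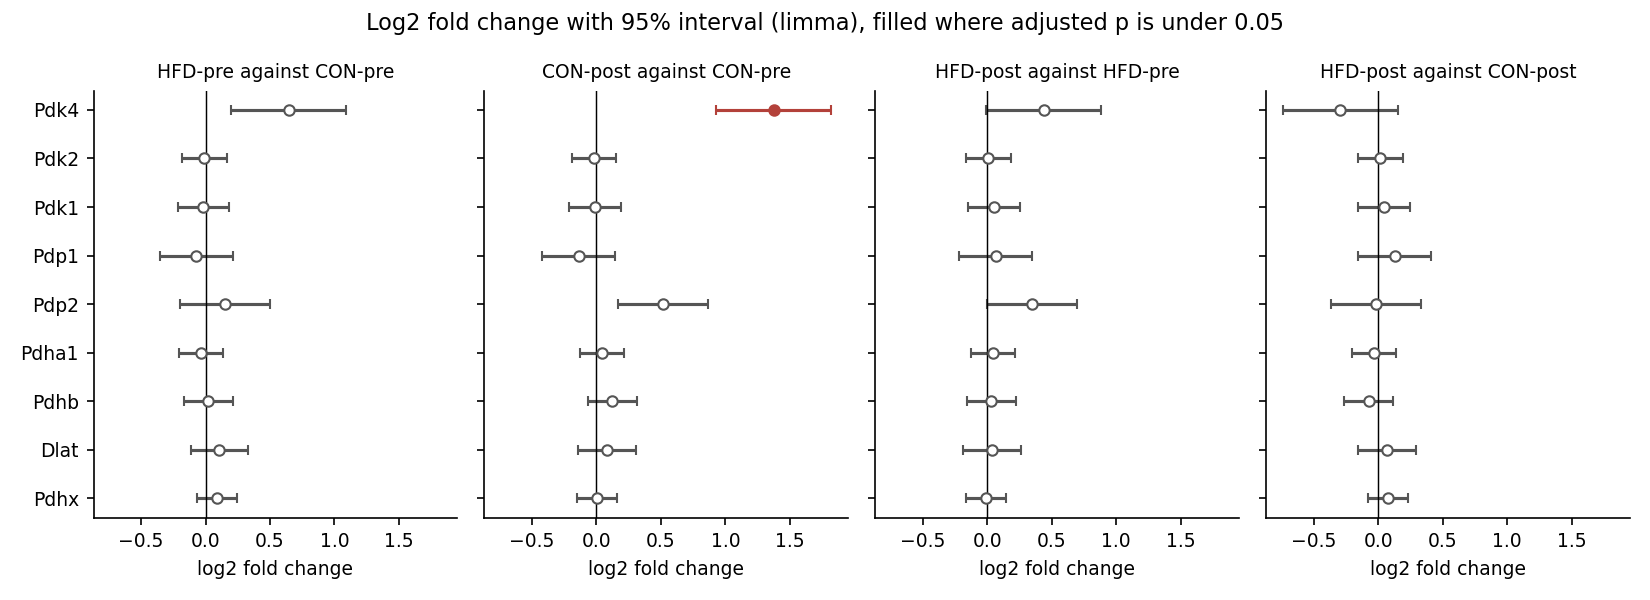
Log2 fold change (x axes, on the log2(FPKM + 0.5) scale) of the 9 members tested (y axis) in the 4 pairwise comparisons, with 95% intervals from limma. The filled red point marks an adjusted p under 0.05, which Pdk4 reached in CON-post against CON-pre, at 1.38, and open points mark the others.

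Pdk2, the most widely expressed of the kinases, kept almost the same level in every group. Its means were 151.8 ± 5.0 FPKM in CON-pre, 151.2 ± 14.3 in HFD-pre, 150.4 ± 15.1 in CON-post and 151.8 ± 10.6 in HFD-post (SD, n = 4 each), over a range from 131.5 to 167.7. The 95% intervals of its 4 pairwise differences all lay between 0.876 and 1.14 fold, and the lowest limma adjusted p among them was 0.963.

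Pdk1, a kinase known as a target of the hypoxia factor HIF-1, was far less abundant than Pdk2 and was not called in any comparison. It averaged 12.1 ± 0.44, 11.97 ± 0.80, 12 ± 0.70 and 12.5 ± 2.17 FPKM in CON-pre, HFD-pre, CON-post and then HFD-post (SD, n = 4 each). The wide spread in HFD-post came with values from 10.7 to 15.6 FPKM, which held both the lowest and the highest of all 16 libraries. The pairwise 95% intervals of Pdk1 ran from 0.860 to 1.19 fold.

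Pdk3 was nearly absent from this muscle, at 0.485 ± 0.131 FPKM in CON-pre, 0.341 ± 0.046 in HFD-pre, 0.389 ± 0.062 in CON-post and 0.346 ± 0.105 in HFD-post (SD, n = 4 each). It was above 0 in all 16 libraries, from 0.219 to 0.648 FPKM, and was not tested.

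With Pdk1 and Pdk2 this steady and Pdk3 a minute part, the make-up of the kinase messenger pool followed Pdk4. The FPKM of Pdk1, Pdk2 and Pdk3 summed to 164.4, 163.5, 162.8 and 164.7 in CON-pre, HFD-pre, CON-post and then HFD-post, while the sum of all 4 kinases was 371.1 ± 65.4, 479.5 ± 63.5, 680.8 ± 23.3 and 597.4 ± 100.4 FPKM (SD, n = 4 each). Pdk4 made up 54.7 ± 8.1% of that pool in CON-pre, 65.5 ± 4.9% in HFD-pre, 76.0 ± 3.0% in CON-post and 71.6 ± 6.7% in HFD-post, and from 46.5% to 79.5% in single libraries. The share of Pdk2 moved the opposite way, from 41.9% in CON-pre to 22.2% in CON-post, while its own mean stayed near 151 FPKM. Per unit of Pdk2, Pdk4 stood at 1.37 in CON-pre, 2.10 in HFD-pre, 3.49 in CON-post and 2.89 in HFD-post. These shares restate the Pdk4 values on another scale and were not tested separately.

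**Figure D3:**
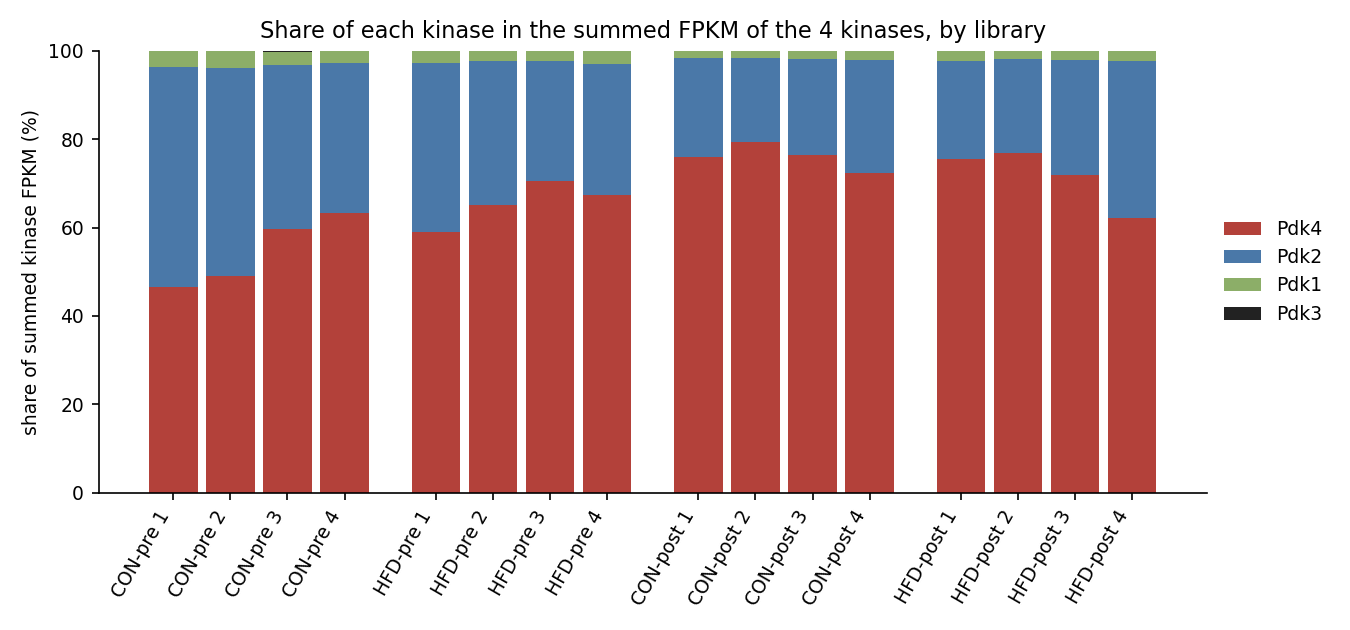
Share of each kinase in the summed FPKM of the 4 kinases (y axis, %) in each of the 16 libraries (x axis, by group and replicate). The Pdk4 part is smallest in CON-pre replicate 1, at 46.5%, and largest in CON-post replicate 2, at 79.5%, and the Pdk3 part is too thin to see at this scale.

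Among the phosphatases, Pdp2 rose after exercise when both diets were pooled. Its libraries read 0.969, 1.04, 2.01 and 0.964 FPKM in CON-pre, 1.15, 1.73, 1.54 and 1.18 in HFD-pre, 1.70, 1.75, 2.39 and 1.91 in CON-post, and 2.11, 1.80, 1.67 and 2.03 in HFD-post. All but replicate 3 of CON-pre lay at or under 1.04 in that group, and the lowest library of either post group was at 1.67. The group means were 1.25 ± 0.51 FPKM in CON-pre, 1.40 ± 0.28 in HFD-pre, 1.94 ± 0.31 in CON-post and 1.90 ± 0.20 in HFD-post (SD, n = 4 each).

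Averaged over diets, Pdp2 was 0.43 higher after exercise on the log2 scale (SE 0.12, 95% interval 0.19 to 0.68, a fold of 1.35, limma adjusted p = 0.0493). With Pdk4 it made 2 members called of 9 tested in that comparison, against 3.86% of all genes tested. The call for Pdp2 lies at the threshold and held in 6 of 27 alternative fits. Within each diet it was not called: the log2 difference was 0.51 (SE 0.16, limma adjusted p = 0.190) in CON-post against CON-pre and 0.35 (SE 0.16, limma adjusted p = 0.426) in HFD-post against HFD-pre. Without the CON-pre library at 2.01 FPKM (replicate 3), the CON-post difference was 0.70 and its adjusted p 0.0148. Since 0.5 FPKM is added before the logarithm, these values understate the change of a gene this low. Between diets, the log2 difference of Pdp2 was 0.15 at rest (0.07 to 0.34 over the alternative fits) and -0.02 after exercise (-0.08 to 0.07), and neither was called.

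Pdp1, the calcium-stimulated phosphatase that predominates in muscle, averaged 14.97 ± 3.1 FPKM in CON-pre, 14.0 ± 0.83 in HFD-pre, 13.5 ± 2.1 in CON-post and 14.8 ± 2.1 in HFD-post (SD, n = 4 each). It was not called in any of the 7 comparisons, and its pairwise 95% intervals ran from 0.748 to 1.33 fold, the widest of the uncalled members apart from Pdp2. Pdp2 supplied on average 10.4% of the summed phosphatase FPKM, between 5.09% and 16.98% in single libraries, so the sum stayed near the Pdp1 level at 16.2, 15.4, 15.4 and 16.7 FPKM in CON-pre, HFD-pre, CON-post and then HFD-post. Kinase FPKM over phosphatase FPKM was 23.5 ± 5.7 in CON-pre, 31.1 ± 4.1 in HFD-pre, 44.7 ± 6.3 in CON-post and 36.7 ± 10 in HFD-post (SD, n = 4 each), a ratio of messenger levels that was not tested.

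The subunits of the complex showed no call in any comparison. Pdha1, the alpha chain that carries the phosphorylated serines, averaged 216.9 ± 7.2, 212.1 ± 21.7, 223.5 ± 14.7 and 218.6 ± 20.9 FPKM in CON-pre, HFD-pre, CON-post and then HFD-post (SD, n = 4 each). Its pairwise 95% intervals lay between 0.866 and 1.16 fold. Pdhb, the beta chain, averaged 61.2 ± 5.8, 62.0 ± 5.0, 66.6 ± 2.6 and 63.5 ± 7.8 FPKM in the same order, with intervals between 0.833 and 1.24 fold. In neither chain of E1 did any group stand clear of another.

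Dlat, the E2 acetyltransferase, averaged 34.4 ± 4.2 FPKM in CON-pre, 37.2 ± 4.7 in HFD-pre, 36.3 ± 2.6 in CON-post and 38.1 ± 4.5 in HFD-post (SD, n = 4 each). Pdhx, the E3-binding protein, averaged 24.7 ± 1.9, 26.3 ± 0.66, 24.8 ± 1.7 and 26.2 ± 2.1 FPKM in that order. Both read slightly higher on the high-fat diet, by 0.09 and 0.08 on the log2 scale when averaged over exercise states, with limma adjusted p-values of 0.763 and 0.638. Over the 7 members other than Pdk4 and Pdp2 and all 7 comparisons, the lowest limma adjusted p was 0.560.

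**Figure D4:**
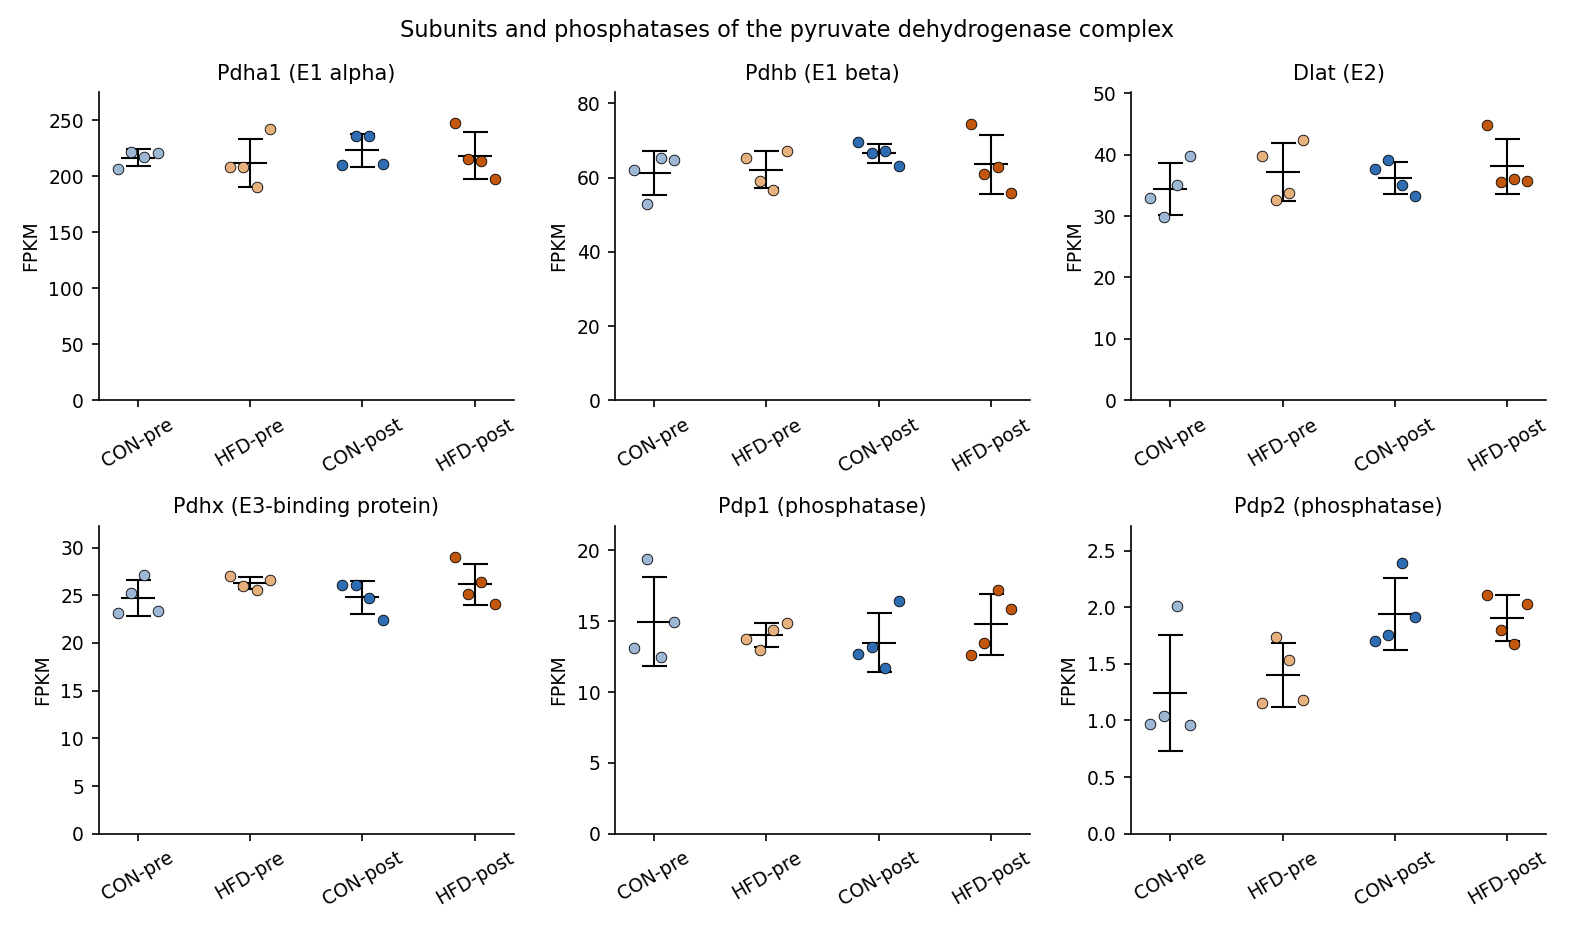
FPKM of 4 subunits of the complex and of its 2 phosphatases (y axes, from 0) in the 4 groups (x axes), with 1 point per library in the order of replicate number, the mean as a long bar and ± 1 SD as whiskers. The subunits overlap in all groups, and the 4 points of Pdp2 in CON-pre include replicate 3 at 2.01 FPKM, above the other CON-pre libraries.

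The members were also compared with each other within groups. After removal of the group means, the log2 values of the subunits correlated in pairs over the 16 libraries with r between 0.458 (Dlat and Pdhx) and 0.863 (Pdhb and Dlat), whereas Pdk2 and Pdha1 gave r = -0.675. These correlations are descriptions, since values of 1 library share its RNA and its scaling, and single libraries went against them: CON-pre replicate 2 had the highest Pdha1 of its group (222.1 FPKM) and the lowest Pdhb (52.7) and Dlat (29.8). HFD-post replicate 1 held the highest value of all libraries in 5 of the 10 members (Pdk1, Pdha1, Pdhb, Dlat and Pdhx). That library also had the lowest FPKM sum of the 16, 283575, and the lowest share of FPKM in its 10 most abundant genes, 29.2%. Their part in those high values was not tested.

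The median log2 difference of the 9 members tested was 0.02 in HFD-pre against CON-pre, 0.04 in CON-post against CON-pre, 0.04 in HFD-post against HFD-pre and 0.02 in HFD-post against CON-post. Over all genes tested the medians were -0.03, -0.01, 0.04 and 0.00 in that order. The members went both ways in each comparison, and the set as a whole was not tested.

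Genes that feed pyruvate to the complex or supply its cofactors were taken as a list of 14, of which 12 were tested (Pdha2 and Mpc1l were not). This list and those below were chosen with earlier results of these data known. Counts and medians over them are therefore descriptions and lend no support. None of the 12 (0) was called in any comparison of exercise. In HFD-pre against CON-pre 1 fell and 1 rose, where 0.346% of all genes tested were called. Pcx, pyruvate carboxylase, which sends pyruvate to oxaloacetate instead of acetyl-CoA, fell from 24.2 ± 1.5 to 15.8 ± 0.48 FPKM (SD, n = 4 each, log2 fold change -0.60, SE 0.10, limma adjusted p = 0.0138). Crat, carnitine acetyltransferase, which buffers the acetyl-CoA that the complex makes, rose from 86.8 ± 2.6 to 104.6 ± 3.1 FPKM (SD, n = 4 each, log2 fold change 0.27, SE 0.05, limma adjusted p = 0.0466). The Crat call was lost in 20 of 28 alternative fits and that of Pcx in 2 of 28, without CON-pre replicate 1 (adjusted p = 0.0632) among them.

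Averaged over exercise states, diet lowered Pcx by 0.52 on the log2 scale (limma adjusted p = 0.00102) and raised Crat by 0.24 (limma adjusted p = 0.00372), and neither call was lost in any of 27 alternative fits. The median over the list was -0.04 in HFD-pre against CON-pre and 0.01 in CON-post against CON-pre. Dld, the E3 enzyme that the complex shares with its relatives, averaged 87.4, 95.4, 93.3 and 93.2 FPKM in CON-pre, HFD-pre, CON-post and then HFD-post. Pdpr, the regulatory subunit of the phosphatase, averaged 25.2, 21.8, 25.3 and 23.9 FPKM, and neither of them was called in any comparison.

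The sister complexes that oxidise 2-oxoglutarate and branched-chain keto acids, built on the same plan and in the second case controlled by a related kinase, Bckdk, formed a list of 9 genes with 8 tested. None of the 8 (0) was called in any of the 7 comparisons. Bckdk averaged 43.8, 44.1, 42.2 and 44.2 FPKM in CON-pre, HFD-pre, CON-post and then HFD-post.

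The factors known to act on kinase genes of the complex were a list of 14, all tested. In CON-post against CON-pre, where 1.11% of all genes tested were called, 2 of them rose. Ppargc1a, the coactivator PGC-1 alpha, went from 6.60 ± 0.36 to 28.3 ± 8.0 FPKM (SD, n = 4 each, log2 fold change 1.98, SE 0.19, limma adjusted p = 4.38e-05). Lpin1, a phosphatidate phosphatase that also coactivates nuclear receptors, went from 78.1 ± 1.8 to 111.4 ± 13.2 FPKM (SD, n = 4 each, log2 fold change 0.50, SE 0.08, limma adjusted p = 0.00344).

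Only Ppargc1a of this list, 1 of 14, was called in HFD-post against HFD-pre, where it went from 4.70 ± 0.34 to 22.3 ± 5.4 FPKM (SD, n = 4 each, log2 fold change 2.10, limma adjusted p = 2.87e-05). Averaged over diets, 4 of the 14 rose after exercise: Ppargc1a by 2.04 on the log2 scale, Foxo1 by 0.70, Foxo3 by 0.48 and Lpin1 by 0.37. Of all genes tested, 3.86% were called in that comparison. FoxO factors drive fasting genes in muscle. The call of Foxo1 (limma adjusted p = 0.0487) was lost in 19 of 27 alternative fits, and those of Ppargc1a, Foxo3 and Lpin1 in 0 of 27. No gene of the list (0 of 14) was called for diet. The median over the list was 0.23 in CON-post against CON-pre and 0.24 in HFD-post against HFD-pre.

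Other genes that fasting or lipid induces in muscle were a list of 19, all tested, to set beside Pdk4. In CON-post against CON-pre, where 1.11% of all genes tested were called, 4 of the 19 rose. Acot2, a mitochondrial thioesterase, rose by 1.45 on the log2 scale (limma adjusted p = 6.77e-05), and Trim63, the muscle ubiquitin ligase MuRF1, by 1.28 (limma adjusted p = 0.00637). Plin5, a coat protein of lipid droplets, rose by 1.16 (limma adjusted p = 0.0126, a call lost in 2 of 28 alternative fits) and Ucp3, a mitochondrial uncoupling protein, by 0.87 (limma adjusted p = 0.00878). Pdk4, at 1.38, lay between Acot2 and Trim63. Reads of Acot2 and of its near copy Acot1 may have been split between them in the counting, which makes both uncertain.

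At rest, where Pdk4 was not called and 0.346% of all genes tested were, 4 of the 19 list genes rose with the high-fat diet. These were Plin5 by 1.52 on the log2 scale (limma adjusted p = 0.00588), Acot2 by 1.16 (limma adjusted p = 0.00274), Cd36, a fatty acid transporter, by 0.64 (limma adjusted p = 0.0229), and Slc25a20, the carnitine-acylcarnitine carrier, by 0.63 (limma adjusted p = 0.00440). The Cd36 call was lost in 6 of 28 alternative fits and that of Plin5 in 1 of 28, with only the groups compared (adjusted p = 0.0559). In HFD-post against HFD-pre 0 of the 19 were called, and in HFD-post against CON-post only Slc25a20 was, at 0.55 (limma adjusted p = 0.0216), a call lost in 8 of 28 alternative fits. Of all genes tested, 0.542% and 0.151% were called, in that order.

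Averaged over diets, where 3.86% of all genes tested were called for exercise, 12 of the 19 rose after it and 0 fell. The rises ran from 0.26 on the log2 scale in Slc25a20 to 1.12 in Trim63, with Fkbp5 at 1.00, Acot2 at 0.96, Plin5 at 0.85, Angptl4 at 0.70, Acot1 at 0.68, Ucp3 at 0.58, Fbxo32 at 0.56, Lpl at 0.37, Cd36 at 0.35 and Cpt1a at 0.34. Fkbp5 is a glucocorticoid-induced immunophilin, Angptl4 an inhibitor of lipoprotein lipase, Fbxo32 the ubiquitin ligase atrogin-1, Lpl lipoprotein lipase itself and Cpt1a a carnitine palmitoyltransferase. Of these 12 calls, 5 were lost in some of 27 alternative fits: Cpt1a in 17, Slc25a20 in 14, Lpl in 11, Cd36 in 7 and Angptl4 in 5. The 0.91 of Pdk4 fell within the range of the 12. Averaged over exercise states, 7 of the 19 rose with the high-fat diet: Fabp3 by 1.22, Plin5 by 1.21, Acot1 by 0.76, Acot2 by 0.67, Slc25a20 by 0.59, Cd36 by 0.55 and Cpt1b by 0.28, where Pdk4, at 0.18, was not called. The Acot1 call for diet was lost in 2 of 27 alternative fits. Of all genes tested, 0.959% were called for diet averaged over exercise states. The median over the list was 0.47 in CON-post against CON-pre and 0.27 in HFD-pre against CON-pre, beside -0.01 and -0.03 over all genes tested. Since the list was chosen with earlier results of these data known, its counts and medians are partly set by the choice.

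**Figure D5:**
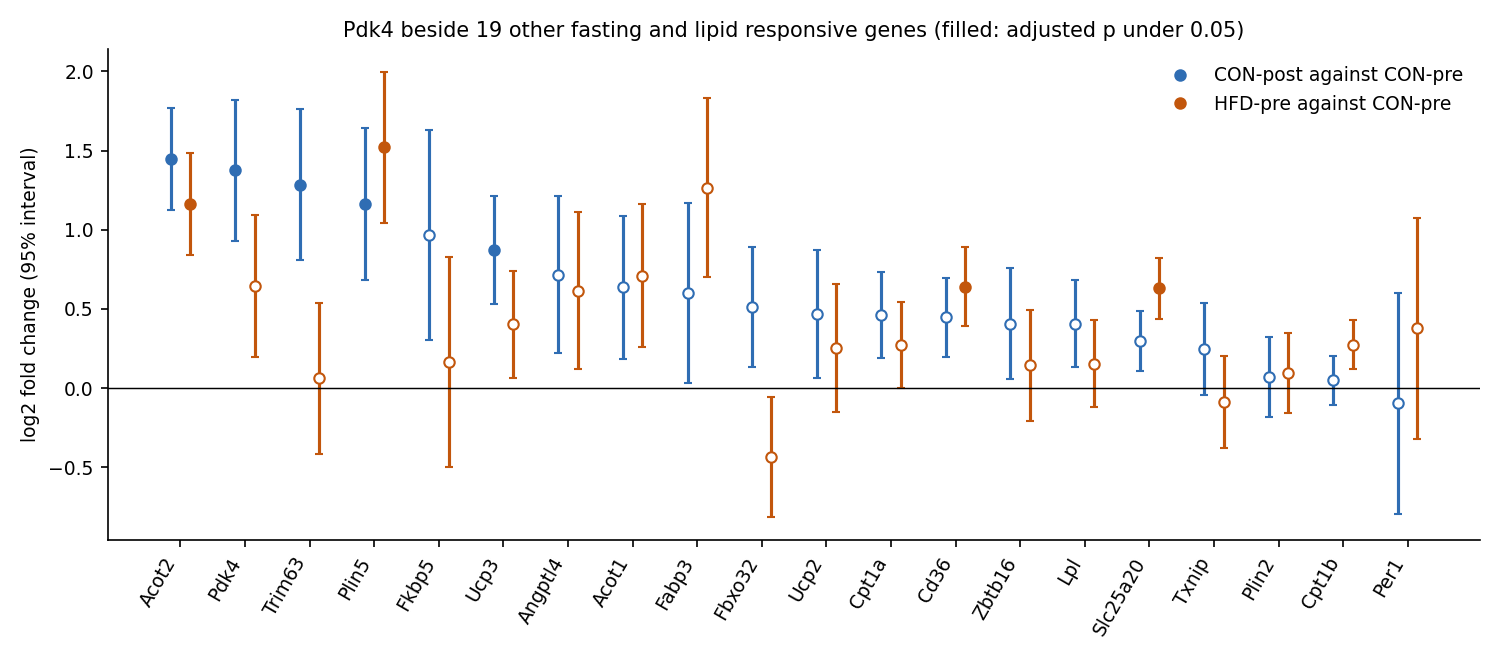
Log2 fold change (y axis, on the log2(FPKM + 0.5) scale, with 95% intervals from limma) of Pdk4 and 19 other genes induced by fasting or lipid (x axis), for CON-post against CON-pre in blue and HFD-pre against CON-pre in orange. Filled points have an adjusted p under 0.05, which Pdk4 (1.38) reached for exercise and not for diet (0.65). Both comparisons use the same CON-pre libraries.

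The genes whose level followed that of Pdk4 most closely were found by Pearson's r of log2(FPKM + 0.5) over the 16 libraries among all genes tested. They were Ucp3 (r = 0.933, Spearman's rho 0.921), Pank1, a pantothenate kinase of coenzyme A synthesis (r = 0.914, rho 0.903), Cblb, a ubiquitin ligase (r = 0.906, rho 0.897), Tacc2, a centrosomal coiled-coil protein (r = 0.904, rho 0.903), and Mcl1, an anti-apoptotic protein (r = 0.891, rho 0.847). After removal of the group means r was 0.765 for Ucp3, 0.693 for Pank1, 0.778 for Cblb, 0.545 for Tacc2 and 0.799 for Mcl1. Since these genes were picked for their r over the same libraries, both values are raised by the choice. Ucp3 averaged 64.7 ± 14.4, 85.1 ± 15.1, 117.2 ± 13.9 and 103.1 ± 15.6 FPKM in CON-pre, HFD-pre, CON-post and then HFD-post (SD, n = 4 each), the same order of groups as Pdk4.

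The libraries had the markers of skeletal muscle: all 8 listed (such as Acta1, Ckm and Myh4) were present, and their summed level lay between 57309 and 77666 FPKM. That sum was 72053 to 77666 FPKM in CON-pre, 62633 to 68416 in HFD-pre, 62813 to 72584 in CON-post and 57309 to 68197 in HFD-post, so the resting groups did not overlap, and 7 of the 8 were below their CON-pre mean log2 level in HFD-pre, with 0 called. Markers of slow fibres, of which 7 of 7 were tested and 0 called, summed to between 178.2 and 730.6 FPKM in single libraries, and all 7 read lower in HFD-pre than in CON-pre. Adipocyte markers summed to 122.9 to 196.5 FPKM in CON-pre, 63.6 to 76.6 in HFD-pre, 105.7 to 197.7 in CON-post and 57.4 to 164.4 in HFD-post. Cfd weighed most in the resting sums, with means of 105.2 FPKM in CON-pre and 27.4 in HFD-pre. The means in that order were 17.4 and 18.3 FPKM for Adipoq, 9.57 and 10.3 for Cidec, 3.99 and 3.62 for Plin1 and 12.95 and 8.05 for Retn. Of the 6 adipocyte markers, 3 read higher and 3 lower in HFD-pre than in CON-pre. Of these 6, Lep rose and Cfd fell with the high-fat diet at rest (log2 fold changes 2.34 and -1.97), and the Lep call was lost in 4 of 28 alternative fits. Of 4 endothelial markers, 2 read higher and 2 lower after exercise averaged over diets. Among them only Pecam1 was called, higher by 0.36 on the log2 scale (limma adjusted p = 0.00141). Pecam1 was also called in HFD-post against HFD-pre, at 0.39 (limma adjusted p = 0.0347), a call lost in 11 of 28 alternative fits. There too, 2 of the 4 read lower. Macrophage markers (4 of 5 in the table), blood markers and nerve markers had no call in any comparison. Of the muscle markers, Des was called at 0.23 for exercise averaged over diets (limma adjusted p = 0.0322), a call lost in 14 of 27 alternative fits. In that comparison 3 of the 8 muscle markers read higher and 5 lower. No marker was at 0 in any library. The part of fibre type or other cells in the values of Pdk4 was not tested, and in whole muscle a change in the cells present and a change in messenger per cell cannot be told apart.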

How the data were processed

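RNA was sequenced from quadriceps of 16 mice (4 per group), with groups taken from the sample titles. According to the methods, polyA RNA was made into stranded libraries (TruSeq) and sequenced on a HiSeq2500 to roughly 20M reads per sample. The authors checked reads with FastQC, aligned them with TopHat and estimated expression with Cufflinks, whose versions are not given in the sources used here. The values they deposited are FPKM, which are not counts, so no count model was used and the depth behind a value is unknown. A relative depth from the values of low genes ran from 0.705 to 1.12 of CON-pre replicate 1, and the FPKM summed to between 283575 and 329282 per library. The methods name the mm9 genome, but 692 of 692 gene loci given with the study overlapped GRCm38.p6 and 114 overlapped the GENCODE M1 genes of mm9. Positions and promoters are therefore from RefSeq GRCm38.p6.

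Of 24487 entries, 27 whose names had turned into dates or numbers were dropped (0.0771% of FPKM) and 260 symbols in several entries were summed, none of them a member. The 11256 genes whose average reached 0.5 FPKM were tested with limma 3.58.1 in R 4.3.3, which fitted log2(FPKM + 0.5) for all 16 libraries at once, allowing the variance to follow the mean and using no covariates. Calls were made where the p, adjusted by Benjamini and Hochberg for all tested genes, was below 0.05. Contrasts comprised the 4 pairwise comparisons, the interaction, and the averages of exercise over diets and of diet over exercise states. P-values measure the spread between animals of these groups. In simulated data of 11178 genes for HFD-pre against CON-pre, 91.9% of 99 genes changed by 1 on the log2 scale and 99% of 97 changed by 2 were called, all in the right direction. Wrongly called there were 11 unchanged genes, and 2 genes were called in HFD-post against CON-post, where no change had been simulated. Python 3.11.15 with pandas 2.3.3, numpy 2.4.6 and matplotlib 3.10.9 was used for summaries and plots.

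The members and gene lists were chosen with earlier results of these data known. Named genes are all members, every list gene called in a contrast, and the 5 genes most correlated with Pdk4, with a few uncalled list genes (Dld, Pdpr, Bckdk) added for their role after their values were seen. Other settings tried were pseudocounts of 0.1 and 1, testing without the filter or with one of 1 FPKM, 3 other scalings, no trend, array weights, a replicate block, an adjusted p under 0.1, only the groups compared, and each library left out in turn. Of the lists as first drawn up, 2 genes were left out and are not reported here. Metabolite measurements and the values in the authors' lists of changed genes are not used here (only the gene positions in them were, to find the build).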

Additional observations from a re-analysis of the deposited data

Results flagged for a closer look

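In 3 of the 40 combinations of member and group, 1 library lay far from the other 3 by Dixon's test at 95%, which chance flags in about 1 in 20 groups. Pdp2 in CON-pre read 2.01 FPKM in replicate 3, against 0.964 to 1.04 in the others. Without this library, the Pdp2 difference between CON-post and CON-pre was 0.70 on the log2 scale with a limma adjusted p of 0.0148, in place of 0.51 and 0.190. Pdk2 in HFD-post read 167.7 FPKM in replicate 4, against 146.0 to 147.0 in the others. Dlat in HFD-post read 44.9 FPKM in replicate 1, against 35.6 to 36.1 in the others, and that library held the highest value of all 16 in 5 of the 10 members.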

How the results depend on the processing

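Each of the 9 members tested was refitted under 12 other settings and with each of the 16 libraries left out. The Pdk4 rise in CON-post was called in 28 of 28 of these fits (log2 1.23 to 1.55, adjusted p 0.000836 to 0.0144) and its rise with exercise averaged over diets in 27 of 27 (0.83 to 0.99). Pdk4 was called in 0 of 28 fits for HFD-pre against CON-pre (0.50 to 0.82, adjusted p 0.143 to 0.707), 0 of 28 for HFD-post against HFD-pre (0.31 to 0.61), 0 of 28 for HFD-post against CON-post (-0.41 to -0.12, the latter without HFD-post replicate 4), 0 of 27 for diet averaged over exercise states (0.10 to 0.26, the former without CON-pre replicate 1) and 0 of 27 for the interaction (-1.12 to -0.76). The 7 members other than Pdk4 and Pdp2 were called in none.

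The count of members called for exercise averaged over diets fell from 2 to 1, through the loss of Pdp2, under a pseudocount of 1, no filter on low values, upper-quartile scaling, median-of-ratios scaling, quantile normalization, array weights and the replicate block (1 member called in each). With single libraries left out it ran from 1 to 2, and Pdp2 kept its call without CON-pre replicate 3 (adjusted p = 0.00380) or HFD-pre replicate 2 and lost it without any 1 of the other 14, with an adjusted p of up to 0.107 without CON-pre replicate 1. For CON-post against CON-pre the count ran from 1 to 2, with 2 without CON-pre replicate 3. Replicate numbers did not pair the samples: over 24 same-numbered pairs the correlation of deviations ran from -0.22 to 0.213, and 0 libraries correlated best with their own number throughout. The replicate block changed no other count of members.

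The counts of calls over all genes, against which the members are read, moved more. With single libraries left out they ran from 21 (without CON-pre replicate 1) to 44 for HFD-pre against CON-pre (39 as reported), from 88 to 187 for CON-post against CON-pre (125), from 21 (without HFD-pre replicate 2) to 78 for HFD-post against HFD-pre (61), from 5 (without CON-post replicate 2) to 16 for HFD-post against CON-post (17), from 0 to 1 for the interaction (0), from 246 (without CON-pre replicate 1) to 566 for exercise averaged over diets (435) and from 76 to 124 for diet averaged over exercise states (108). Under the other settings they ran from 29 to 63, 72 to 208, 37 to 93, 2 to 30, 0 to 0, 303 to 779 and 87 to 178 in that order. The share of higher calls was 87.2% in CON-post, 90.2% in HFD-post and 76.3% for exercise averaged over diets as deposited, and 75.9%, 71.4% and 57.1% under upper-quartile scaling, 80.8%, 75.9% and 63.7% under median-of-ratios scaling and 73.5%, 66.7% and 53.9% under quantile normalization. FPKM without counts leave the precision of low genes such as Pdk3 and Pdp2 unknown.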

Other observations

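Ratios between members gave the balance of the complex on the messenger level. Pdha1 over Pdhb, the 2 chains of E1, stood at 3.57 ± 0.43 in CON-pre, 3.42 ± 0.19 in HFD-pre, 3.36 ± 0.24 in CON-post and 3.45 ± 0.10 in HFD-post (ratio of FPKM, SD, n = 4 each). Dlat over Pdhx, the core enzyme against the protein that anchors E3 to it, stood at 1.40 ± 0.22, 1.41 ± 0.15, 1.46 ± 0.04 and 1.45 ± 0.08 in the same order. Pdk4 over Pdha1, the kinase against the chain it phosphorylates, stood at 0.950 ± 0.290, 1.51 ± 0.40, 2.32 ± 0.15 and 1.97 ± 0.41, so the Pdk4 messenger was below that of its substrate chain on average in CON-pre and above it in the other groups. These ratios were not tested.

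AGAACA was found in 1 of the 11 promoter windows of the members, at 153 and 138 bases before a second start of Pdk1. CCAAT on either strand was found in windows of Pdk2, Pdk3, Pdk4, Pdp2, Pdhb and Pdhx, with 3 matches each in those of Pdk2 and Pdhb. The Pdhb matches are at a start that lies inside the gene, not at its outermost start.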
